A study of Rattus norvegicus with 18 samples.

Results

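Reactive astrocyte genes are 6 genes whose products are intermediate filaments, secreted proteins or a membrane enzyme of astrocytes that respond to injury. They were listed by symbol as Gfap, Vim, Nes, Lcn2, Serpina3n and Steap4. No rule on their values was used, but earlier results of these data were known. The symbols of 5 of the 6 were found among the 30735 genes of the count table, and these 5 all passed the filter on low counts, which 18444 genes passed. Their identifiers are ENSRNOG00000002919 for Gfap, ENSRNOG00000018087 for Vim, ENSRNOG00000018681 for Nes, ENSRNOG00000013973 for Lcn2 and ENSRNOG00000008602 for Steap4. Serpina3n had no row under that symbol and was not analysed here. RNA of the cerebral cortex was sequenced in 18 libraries from adult Sprague Dawley rats, with 6 rats per group. The sham group had the surgery without perforation of the artery, and the SAH 1d and SAH 7d groups had subarachnoid hemorrhage by endovascular perforation and were sampled on day 1 or day 7. Sex and the day of sham sampling are not given, so time since surgery and SAH cannot be told apart in the comparisons with sham. Total counts ranged from 27270026 to 38271014 per library. The tissue was bulk cortex, so fewer or more cells of a type and less or more RNA per cell cannot be told apart.

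Astrocytes are the support cells of the brain that take up glutamate, buffer potassium and line the vessels with their end feet. After injury they enlarge, rebuild their cytoskeleton from intermediate filaments and release acute-phase and inflammatory proteins, a response called reactive astrogliosis. Cytokines of the interleukin-6 family act on it through the gp130 receptor and the transcription factor STAT3, and NF-kB is another known input. Several of its genes are also used by other cells, such as vimentin by vessel and meningeal cells and by macrophages, and lipocalin 2 by neutrophils.

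The promoters of 4 of these genes are shown because the genes differed widely in how far they moved after SAH. All are RefSeq sequences of the GRCr8 rat assembly, given 5′ to 3′ in the direction of the gene, from 250 bases before the start site to 50 bases after it, whereas the deposited counts were made on the Rnor_6.0 assembly. Capitals mark matches on either strand to 5 motifs, the STAT motif TTCNNNGAA, the NF-kB motif (GGG, any NN, then TTTCC), the AP-1 motif TGANTCA, the C/EBP motif TTGCNNCAA and the TATA motif TATAAA.
Gfap (GRCr8 chr10:88361612-88361911, minus strand): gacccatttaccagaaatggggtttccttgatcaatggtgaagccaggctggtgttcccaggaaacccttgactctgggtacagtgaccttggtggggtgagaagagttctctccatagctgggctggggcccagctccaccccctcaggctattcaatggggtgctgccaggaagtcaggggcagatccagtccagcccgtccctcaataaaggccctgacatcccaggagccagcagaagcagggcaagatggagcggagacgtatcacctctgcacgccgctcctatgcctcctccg
Vim (GRCr8 chr17:81577011-81577310, plus strand): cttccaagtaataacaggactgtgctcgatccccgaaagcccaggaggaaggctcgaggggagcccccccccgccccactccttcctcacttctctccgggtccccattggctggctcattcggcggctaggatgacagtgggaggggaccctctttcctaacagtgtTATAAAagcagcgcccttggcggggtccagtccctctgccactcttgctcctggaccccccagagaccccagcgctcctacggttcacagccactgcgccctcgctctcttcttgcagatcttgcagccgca
Lcn2 (GRCr8 chr3:36081731-36082030, minus strand): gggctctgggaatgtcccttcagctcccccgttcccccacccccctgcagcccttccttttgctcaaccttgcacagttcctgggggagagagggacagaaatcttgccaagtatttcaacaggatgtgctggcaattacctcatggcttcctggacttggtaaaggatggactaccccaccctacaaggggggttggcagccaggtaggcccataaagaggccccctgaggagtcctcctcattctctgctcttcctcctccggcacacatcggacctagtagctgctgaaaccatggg
Steap4 (GRCr8 chr4:27054720-27055019, minus strand): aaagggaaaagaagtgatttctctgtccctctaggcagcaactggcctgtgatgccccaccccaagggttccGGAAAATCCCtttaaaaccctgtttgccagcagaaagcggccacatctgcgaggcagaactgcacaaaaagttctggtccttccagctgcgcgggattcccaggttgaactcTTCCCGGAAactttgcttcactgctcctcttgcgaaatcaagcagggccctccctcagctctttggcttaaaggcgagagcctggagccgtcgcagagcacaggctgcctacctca
Steap4 held a STAT match, TTCCCGGAA, that began 66 bases before the start site, and an NF-kB match on the other strand, read as GGAAAATCCC, that began 178 bases before it. Vim held TATAAA 82 bases before the start. Gfap and Lcn2 held none of the 5 motifs in this window, and neither did Nes, while Serpina3n, which was not found in the count table and whose promoter is not shown, held a STAT match, TTCCCAGAA, 123 bases before the start. Of the 33469 promoters of the same length in the table, 8.87% held the STAT motif, 1.53% the NF-kB motif, 7.33% the AP-1 motif, 2.17% the C/EBP motif and 14.2% the TATA motif. A match describes letters and not a bound site, and the lack of one applies to these letters in this window.

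The first comparison asked how the cortex differed 1 day after SAH. Gfap, Vim, Nes and Lcn2 rose, and Steap4 did not pass the test. Expression was compared as counts with edgeR's quasi-likelihood test, and p-values were adjusted over the 18444 genes by Benjamini-Hochberg, with an adjusted p under 0.05 as the threshold. Of the 5 genes, 4 were higher in SAH 1d, where 14.9% of all tested genes were. The same 4 had no overlap between the 6 sham and the 6 SAH 1d libraries, as did 7.89% of all genes in that direction.

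Gfap encodes glial fibrillary acidic protein, the main filament of mature astrocytes. Its normalised level was 285, 340 and 540 CPM (lowest, median and highest of 6 libraries; counts scaled by library total and TMM) in sham and 2244, 2826 and 3769 CPM in SAH 1d. Every SAH 1d library lay far above every sham library, and the fold was 8.02 (log2 fold change 3.003, SE 0.175, edgeR adjusted p = 1.37e-06). Vim, the filament protein vimentin, had 68.9, 90.2 and 128 CPM in sham and 248, 338 and 561 CPM in SAH 1d. The groups were again apart, by a smaller fold of 3.82 (log2 fold change 1.93, SE 0.216, edgeR adjusted p = 8.89e-05). Nes encodes nestin, a filament of neural progenitors that reactive astrocytes also make. It had 1.83, 2.94 and 4.93 CPM in sham and 6.99, 11.4 and 31.6 CPM in SAH 1d, with 31.6 CPM in SAH 1d-3 and at most 12.4 CPM in the other SAH 1d libraries. Its fold was 4.50 (log2 fold change 2.17, SE 0.363, edgeR adjusted p = 0.00143).

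Lcn2 encodes lipocalin 2, a secreted protein that binds bacterial siderophores. It had the highest fold of the 5 genes. Sham libraries held 0.430, 0.669 and 0.793 CPM (lowest, median and highest), and SAH 1d libraries held 9.17, 27.2 and 66.5 CPM. The lowest SAH 1d library was above the highest sham library, and the fold was 47.4 (log2 fold change 5.57, SE 0.423, edgeR adjusted p = 9.39e-06). Steap4 encodes a membrane metalloreductase that reduces iron and copper. It had 0.553, 1.81 and 2.80 CPM in sham and 0.996, 2.36 and 8.04 CPM in SAH 1d. The ranges overlapped, and its log2 fold change of 0.95 (SE 0.483, edgeR adjusted p = 0.162) did not pass.

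**Figure D1:**
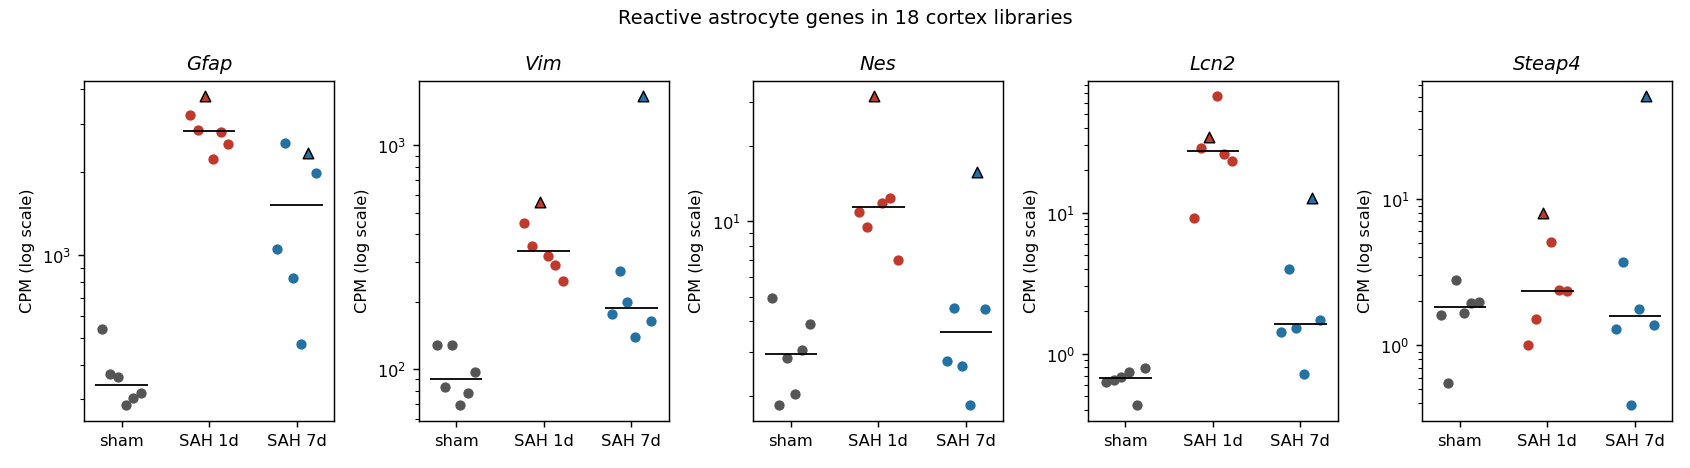
Normalised level of each gene in CPM (log scale) in each library of the 3 groups, with a line at the group median and triangles for SAH 1d-3 and SAH 7d-5. Gfap, Vim, Nes and Lcn2 are higher in each SAH 1d library than in any sham library, and SAH 7d-5 is the highest SAH 7d library for Vim, Nes, Lcn2 and Steap4.

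Levels of different genes were compared per length, in FPKM. In sham the order was Gfap at 124 ± 27.7 FPKM, Vim at 48.4 ± 11.3, Lcn2 at 0.665 ± 0.128, Steap4 at 0.530 ± 0.215 and Nes at 0.517 ± 0.187 (mean ± SD, n = 6 each). The last 3 differed from each other by less than the SD of Nes. In SAH 1d Gfap stood at 1090 ± 200 FPKM, Vim at 201 ± 61.0, Lcn2 at 35.3 ± 21.2, Nes at 2.61 ± 1.69 and Steap4 at 1.09 ± 0.852 (n = 6 each), and the last pair again differed by less than the SD of Nes. In SAH 7d they were 547 ± 308 for Gfap, 227 ± 316 for Vim, 4.01 ± 5.06 for Lcn2, 3.09 ± 6.29 for Steap4 and 0.970 ± 1.02 for Nes. The SDs of the last 4 exceeded their means.

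The share of Vim relative to Gfap also moved. The ratio of their FPKM values was chosen after the values were seen and is given without a test. It was 0.394 ± 0.0728 in sham (SD, n = 6, from 0.328 to 0.518) and 0.182 ± 0.0302 in SAH 1d (n = 6, from 0.142 to 0.214), so no SAH 1d library reached the sham range. In SAH 7d it ran from 0.122 to 1.02, with the value of 1.02 in SAH 7d-5.

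Lcn2 is also a neutrophil gene, and neutrophil markers differed between the groups. Of 10 neutrophil markers, 3 passed the filter and 2 of them rose in SAH 1d, where 14.9% of all genes rose. The 2 were S100a9 (log2 fold change 3.98, SE 1.13, edgeR adjusted p = 0.0213) and Csf3r (log2 fold change 1.74, SE 0.340, edgeR adjusted p = 0.00339). S100a9 was at 30.5 CPM in SAH 1d-3, and without that library its log2 fold change was 2.01 and did not pass (edgeR adjusted p = 0.0576), while without sham-4 it was 5.10. The summed level of the 10 markers ran from 1.92 to 7.41 CPM in sham, from 6.76 to 71.5 CPM in SAH 1d and from 3.70 to 221 CPM in SAH 7d. The 221 CPM of SAH 7d-5 were mostly Mmp8 (130 CPM) and Csf3r (89.2 CPM), with S100a8 at 0.212 CPM and S100a9 at 0.696 CPM, where the sham libraries reached 0.185 and 1.48 CPM. The granule markers Mpo and Elane had at most 2 and 7 counts in any SAH 1d library, and Ltf had none in any library. The SAH 1d library with the most Lcn2, SAH 1d-4 at 66.5 CPM, had the least S100a8 (0.107 CPM) and the least S100a9 (0.752 CPM) of its group. The same library held 711.7 CPM of choroid plexus markers and SAH 1d-6, with Lcn2 at 23.2 CPM, held 1037 CPM, against at most 34.5 CPM in the other 4 SAH 1d libraries. The part of neutrophils or choroid plexus in the rise of Lcn2 was not tested.

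**Figure D2:**
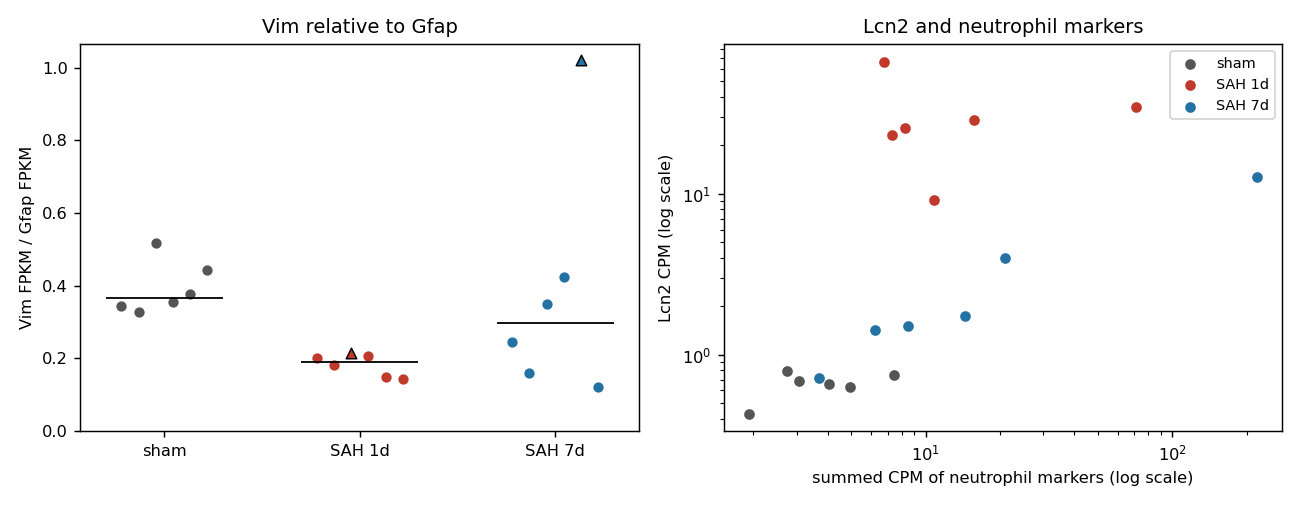
Left, ratio of Vim to Gfap FPKM in each library, with a line at the group median; right, Lcn2 CPM against the summed CPM of 10 neutrophil markers, both on log scales, 1 point per library. The SAH 1d ratios of 0.142 to 0.214 lie below the sham ratios, and the highest Lcn2 level, 66.5 CPM, is in a library with the lowest neutrophil sum of its group, 6.76 CPM.

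A gene related to Serpina3n was counted, and it is reported although it was not listed and was chosen after its values were seen. LOC299282 carries the gene number 299282, which RefSeq names Serpina3l, and in the RefSeq gene order it stands directly before Serpina3n. Both belong to the serpin A3 group of secreted protease inhibitors, whose copies are alike, so how reads were shared between them is uncertain. LOC299282 had 0 to 0.371 CPM in sham, and 5.52 to 81.4 CPM in SAH 1d, without overlap, as for 7.89% of all genes (log2 fold change 8.23, SE 0.891, edgeR adjusted p = 7.15e-05). In SAH 7d it ran from 0 to 8.53 CPM. Of the other relatives, Serpina3c and Serpina3m were at 0 in every library, and Serpina3a had at most 18 counts in any library.

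The second comparison asked what remained on day 7. By edgeR none of the 5 genes passed, and 0.00% of all genes were higher, since 0 of 18444 genes passed in either direction. At an unadjusted p under 0.05 there were 2842 genes, 15.4%, and 4 of the 5 listed genes. DESeq2 called 2 of the 5, Gfap (adjusted p = 1.20e-05) and Lcn2 (adjusted p = 0.00529), where it called 2.20% of all genes higher, and it gave no adjusted p for Vim and Steap4. With limma voom and sample weights none of the 5 passed, where 0.0108% of all genes were higher.

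Gfap had 476, 1520 and 2548 CPM in SAH 7d (lowest, median and highest). It was above every sham library in 5 of 6 SAH 7d libraries, and SAH 7d-4 lay within the sham range (log2 fold change 2.09, SE 0.376, edgeR adjusted p = 0.193). Vim had 140, 188 and 1651 CPM. All 6 SAH 7d libraries were above all sham libraries, as for 0.797% of all genes (log2 fold change 2.17, SE 0.612, edgeR adjusted p = 0.214), and the log2 fold change was 0.985 without SAH 7d-5. Lcn2 had 0.719, 1.63 and 12.8 CPM and exceeded the sham range in 5 of 6 libraries (log2 fold change 2.49, SE 0.633, edgeR adjusted p = 0.214; 1.52 without SAH 7d-5). Nes had 1.85, 3.61 and 15.8 CPM and overlapped the sham range (log2 fold change 0.79, SE 0.488, edgeR adjusted p = 0.421; 0.077 without SAH 7d-5). Steap4 had 0.387, 1.57 and 50.04 CPM, and its median was near that of sham (log2 fold change 2.48, SE 1.05, edgeR adjusted p = 0.295). Without SAH 7d-5 its sign turned, to -0.033.

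The library SAH 7d-5 stood apart from the other 5 SAH 7d libraries. It held 29.5 times their mean for Steap4, 8.64 times for Vim, 6.81 times for Lcn2, 4.87 times for Nes and 1.71 times for Gfap. In the same library the summed monocyte and macrophage markers were at 8182 CPM against at most 252 CPM in the others, meningeal fibroblast markers at 4073 CPM against at most 407 CPM, and microglia markers at 2701 CPM against at most 1066 CPM. Neuron markers were at 2127 CPM against at least 5999 CPM. SAH 1d-3 was likewise the highest of its group for Gfap, Vim, Nes and Steap4, with neutrophil markers at 71.5 CPM against at most 15.7 CPM and monocyte and macrophage markers at 494 CPM against at most 124 CPM. The part of these cells in the levels was not tested.

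The third comparison set SAH 7d against SAH 1d. With all libraries 252 genes differed by edgeR, 1.37% of those tested and 1.08% in the lower direction, and none of the 5 listed genes was among them. At an unadjusted p under 0.05, 3 of the 5 were lower, where 14.7% of all genes passed in either direction. DESeq2 called 1, where it called 3.50% of all genes lower, and it gave no adjusted p for Vim and Steap4 here either. With sample weights limma voom called 4 of the 5, where it called 8.37% of all genes lower. Lcn2 was nearest, 8.38 times lower (log2 fold change -3.07, SE 0.699, edgeR adjusted p = 0.0545), and 5 of 6 SAH 7d libraries lay below all SAH 1d libraries. Gfap had a log2 fold change of -0.91 (SE 0.357, edgeR adjusted p = 0.245), Nes of -1.37 (SE 0.537, edgeR adjusted p = 0.245), Vim of 0.24 (SE 0.597, edgeR adjusted p = 0.894) and Steap4 of 1.54 (SE 1.06, edgeR adjusted p = 0.536).

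These values depended on SAH 7d-5. Without it Lcn2 (log2 fold change -4.06, edgeR adjusted p = 0.00174), Nes (-2.11, edgeR adjusted p = 0.00956) and Vim (-0.97, edgeR adjusted p = 0.0235) were lower in SAH 7d, 3 of 5 genes where 5.19% of all genes were lower. Steap4 changed sign, to -1.01, and did not pass. With SAH 1d-3 left out as well, the 3 genes passed again, where 7.49% of all genes were lower. Gfap passed in neither case.

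**Figure D3:**
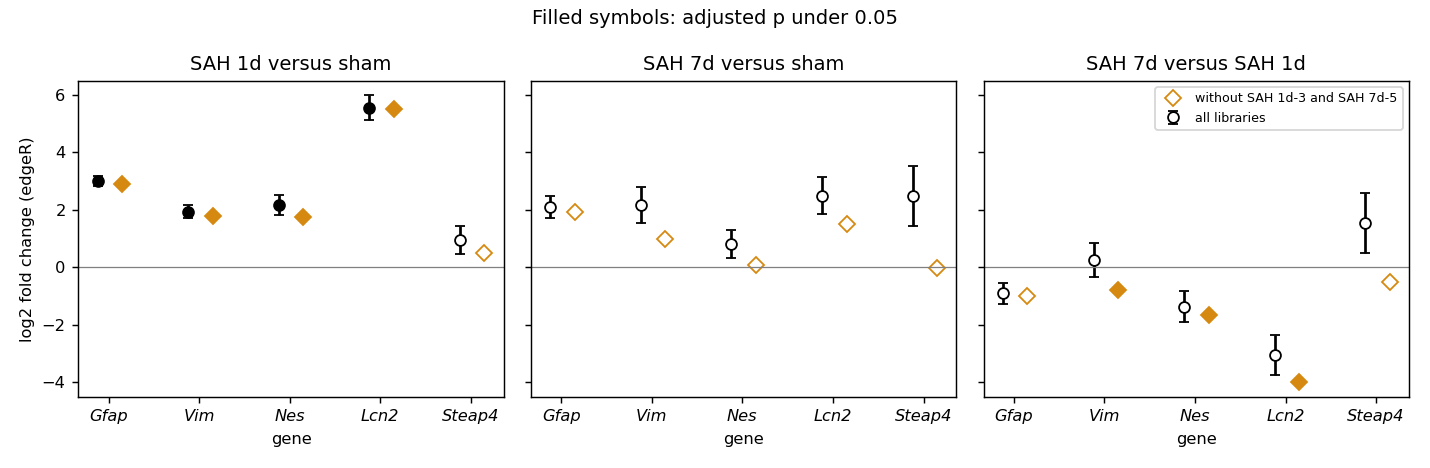
Log2 fold change of each gene in the 3 comparisons, as circles with bars of 1 SE for all libraries and as diamonds with SAH 7d-5 and SAH 1d-3 left out, filled where the edgeR adjusted p is under 0.05. Gfap, Vim, Nes and Lcn2 pass in SAH 1d versus sham, from 1.93 to 5.57, and Vim and Steap4 change sign in SAH 7d versus SAH 1d.

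Other genes of the reactive state were followed as lists. The pan-reactive list holds genes that astrocytes raise after several kinds of injury. Its 8 other genes all rose in SAH 1d against sham, where 14.9% of all genes did. Their median log2 fold change was 3.61, where the median of all genes was 0.0086. Timp1, an inhibitor of matrix metalloproteinases, rose by 5.98 on the log2 scale (SE 0.888, edgeR adjusted p = 0.000684), the heat shock protein Hspb1 by 5.28 (SE 0.351, edgeR adjusted p = 3.15e-06) and the chemokine Cxcl10 by 4.11 (SE 0.466, edgeR adjusted p = 0.000102). Timp1 was at 640 CPM in SAH 1d-3, and without that library its log2 fold change was 4.33, while that of Cxcl10 was 4.70 without sham-4. DESeq2 called 6 of the 8, and the share of all genes that it called in SAH 1d is not given here. In SAH 7d against sham none of the 8 passed by edgeR. An unadjusted p under 0.05 was found for 7, where 15.4% of all genes had one, and DESeq2 called 4, where it called 2.20% of all genes higher. From day 1 to day 7, 2 fell, Hspb1 (log2 fold change -3.75, SE 0.439, edgeR adjusted p = 0.00136) and the sphingosine-1-phosphate receptor S1pr3 (log2 fold change -1.75, SE 0.348, edgeR adjusted p = 0.0293). Of all genes 1.08% fell. With both SAH 7d-5 and SAH 1d-3 left out, all 8 fell, where 7.49% of all genes did. The call of S1pr3 was lost in 9 of the 12 fits that leave out 1 library, with adjusted p up to 0.0810, and that of Hspb1 in none.

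The A1-type and A2-type lists hold genes named for neuroinflammatory and ischemic astrocyte states. Of 9 A1-type genes 5 rose in SAH 1d and none fell, with a median log2 fold change of 1.69. The shares of all genes were 14.9% higher and 10.5% lower. The interferon-induced GTPase Gbp2 rose by 2.56 on the log2 scale (SE 0.489, edgeR adjusted p = 0.00294), complement C3 by 2.43 (SE 0.347, edgeR adjusted p = 0.000544) and the immunoproteasome subunit Psmb8 by 2.29 (SE 0.427, edgeR adjusted p = 0.00261). Of 12 A2-type genes 8 rose and none fell, with a median of 1.91. Ptx3, a pentraxin of innate immunity, rose by 7.05 (SE 0.886, edgeR adjusted p = 0.000213), the transglutaminase Tgm1 by 4.97 (SE 1.06, edgeR adjusted p = 0.00547) and Cd14, a co-receptor for lipopolysaccharide, by 4.59 (SE 0.784, edgeR adjusted p = 0.00159). Without SAH 1d-3 these 3 log2 fold changes were 6.03, 3.32 and 3.09, all still past the threshold, and that of Tgm1 was 5.64 without sham-5. Tgm1 was barely detected, with a mean of 0.0575 CPM in sham and a median of 0.58 CPM in SAH 1d.

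On day 7 none of the A1-type or A2-type genes passed against sham by edgeR. An unadjusted p under 0.05 was found for 6 of each list, where 15.4% of all genes had one. DESeq2 called 4 A1-type genes and 1 A2-type gene, where it called 2.20% of all genes higher. C3 had means of 10.2 CPM in sham, 55.0 CPM in SAH 1d and 185 CPM in SAH 7d. All 6 SAH 7d libraries were above all sham libraries for C3, as for 0.797% of all genes. Neither comparison with SAH 7d passed for C3 (edgeR adjusted p = 0.149 against sham and 0.132 against SAH 1d). Between SAH 1d and SAH 7d, 1 gene of the A2-type list fell, Ptx3 (log2 fold change -4.76, SE 0.974, edgeR adjusted p = 0.0340), where 1.08% of all genes did. None of the A1-type list passed. In that list 2 had an unadjusted p under 0.05, where 14.7% of all genes had one, and DESeq2 called 2. With SAH 7d-5 and SAH 1d-3 left out, 6 A2-type genes fell and 1 rose, and 1 A1-type gene moved in each direction, where 7.49% of all genes fell. The call of Ptx3 was lost in 8 of the 12 fits that leave out 1 library, with adjusted p up to 0.0995, and its log2 fold change was -3.74 without SAH 1d-3 and -6.09 without SAH 7d-5.

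**Figure D4:**
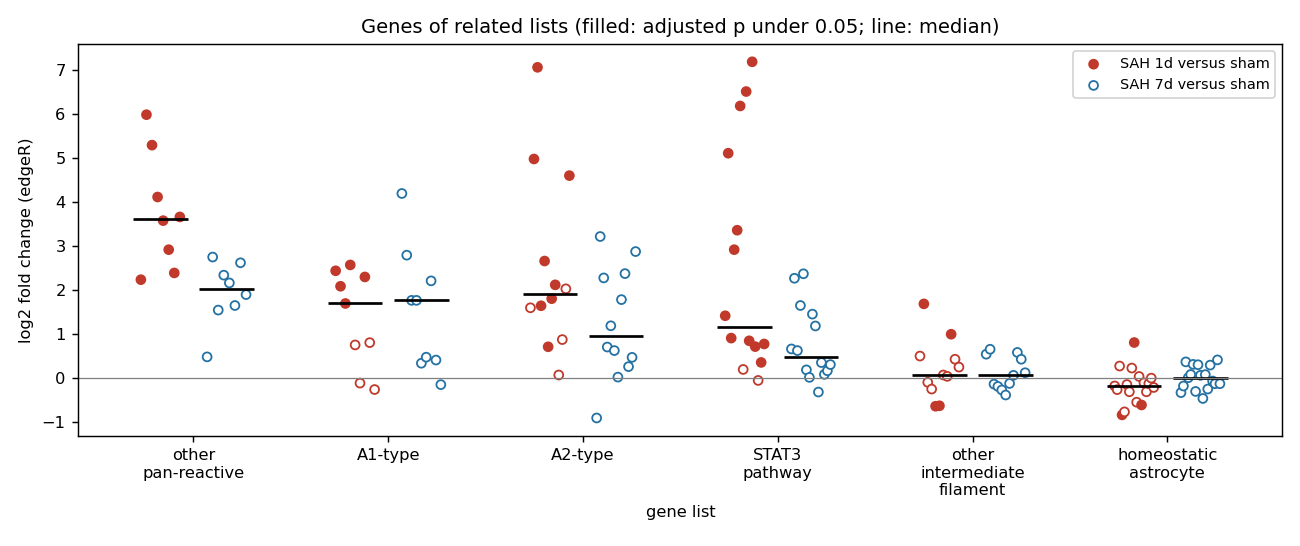
Log2 fold change of each tested gene of 6 lists in SAH 1d versus sham and in SAH 7d versus sham, filled where the edgeR adjusted p is under 0.05, with a line at the list median. In SAH 1d all 8 other pan-reactive genes pass and 12 of 14 STAT3 pathway genes do, while 3 of 17 homeostatic astrocyte genes do.

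Genes of the STAT3 pathway rose in SAH 1d for 12 of 14 members, where 14.9% of all genes rose, with a median log2 fold change of 1.15. Among its ligands Il11 rose by 7.18 on the log2 scale (SE 1.60, edgeR adjusted p = 0.00677), Il6 by 6.50 (SE 1.53, edgeR adjusted p = 0.00904) and Lif by 6.17 (SE 1.18, edgeR adjusted p = 0.00301). The receptor Osmr, which the pan-reactive list also holds, rose by 2.91 (SE 0.587, edgeR adjusted p = 0.00403). The factor Stat3 itself rose by 1.41 (SE 0.217, edgeR adjusted p = 0.000858), and its target and inhibitor Socs3 by 5.10 (SE 0.696, edgeR adjusted p = 0.000389). SAH 1d-3 held Il6 at 43.3 CPM and Lif at 28.2 CPM, and without it the log2 fold changes were 4.08 for Il11, 3.24 for Il6, 4.49 for Lif, 1.94 for Osmr and 4.12 for Socs3, all still past the threshold. Without sham-3 that of Lif was 6.83. These 3 ligands were near the floor in sham, with at most 6 counts for Il11, 6 for Il6 and 7 for Lif in any library. Their medians in SAH 1d were 1.69, 0.949 and 1.42 CPM. Against sham none of the 14 passed on day 7 by edgeR. An unadjusted p under 0.05 was found for 7, where 15.4% of all genes had one, and DESeq2 called 1, where it called 2.20% of all genes higher. Stat3 then had a log2 fold change of 0.65 (edgeR adjusted p = 0.258). From SAH 1d to SAH 7d, Il11 (log2 fold change -7.52, SE 1.62, edgeR adjusted p = 0.0423) and Lif (log2 fold change -5.99, SE 1.20, edgeR adjusted p = 0.0307) fell, where 1.08% of all genes did. With SAH 7d-5 and SAH 1d-3 left out, 8 of the 14 fell, where 7.49% of all genes did. Il11 lost its call in 7 and Lif in 6 of the 12 fits that leave out 1 library, with adjusted p up to 0.111 and 0.0850, and without SAH 1d-3 their log2 fold changes were -4.42 and -4.31.

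The homeostatic astrocyte genes, which also serve as markers of the cell type in this tissue, were all detected. Of 17, 1 rose and 2 fell in SAH 1d, with a median log2 fold change of -0.19, and the log2 fold change was positive for 4 of the 17. The shares of all genes were 14.9% higher and 10.5% lower. Sox9, an astrocyte transcription factor, rose by 0.80 (SE 0.164, edgeR adjusted p = 0.00439). The folate enzyme Aldh1l1 fell by 0.85 on the log2 scale (SE 0.195, edgeR adjusted p = 0.00800), and the glycolytic enzyme Aldoc fell by 0.62 (SE 0.174, edgeR adjusted p = 0.0202). The water channel Aqp4 (log2 fold change 0.26, edgeR adjusted p = 0.334) and the glutamate transporter Slc1a2 (log2 fold change -0.19, edgeR adjusted p = 0.371) did not pass. In the comparisons with SAH 7d none passed by edgeR, where 1 gene against sham and 6 against SAH 1d had an unadjusted p under 0.05, and DESeq2 called 0 and 2. Of all genes 15.4% and 14.7% had such an unadjusted p. With SAH 7d-5 and SAH 1d-3 left out, 3 rose and 1 fell from SAH 1d to SAH 7d, where 7.49% of all genes fell.

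Among 11 other filament and linker genes, 2 rose and 2 fell in SAH 1d, where 14.9% of all genes rose and 10.5% fell. The counts of this list are near those shares. The muscle filament gene Des rose by 1.68 on the log2 scale (SE 0.201, edgeR adjusted p = 0.000154) and the nuclear lamin Lmna by 0.99 (SE 0.146, edgeR adjusted p = 0.000678). The neuronal filaments Nefl and Nefm fell by 0.65 (SE 0.103, edgeR adjusted p = 0.00107) and by 0.64 (SE 0.150, edgeR adjusted p = 0.00889). Of the partners and relatives of the secreted and membrane proteins, 6 of 10 passed the filter. Steap1 rose by 2.09 (SE 0.414, edgeR adjusted p = 0.00362) and Mmp9, the metalloproteinase that lipocalin 2 binds, by 1.98 (SE 0.521, edgeR adjusted p = 0.0155; 1.01 without SAH 1d-3), while Slc22a17, the lipocalin 2 receptor, fell by 0.55 (SE 0.123, edgeR adjusted p = 0.00708). In the comparisons of SAH 7d with sham and with SAH 1d none of these filament genes or partners passed by edgeR. At an unadjusted p under 0.05 there were 3 and 1 filament genes and 1 and 1 partners, and DESeq2 called 0 and 1 filament genes and none of the partners. Of all genes 15.4% and 14.7% had such an unadjusted p. With SAH 7d-5 and SAH 1d-3 left out, 1 filament gene rose and 2 fell from SAH 1d to SAH 7d. Of the partners 1 rose and 1 fell, where 7.49% of all genes fell.

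Markers of other cells were counted in the same way. In SAH 1d against sham, 5 of 6 neuron markers fell, where 10.5% of all genes did, and the count ran from 0 with all 18 libraries in 1 fit to 6 without SAH 1d-3, with 2 without sham-5 or without sham-6. Of 7 microglia markers 1 fell and none rose by edgeR, while limma voom, and edgeR with SAH 7d-5 and SAH 1d-3 left out, each had 3 higher and 1 lower, and DESeq2 had 2 in each direction. The shares of all genes under these alternatives in SAH 1d are not given here. The genes that rose numbered 2 of 7 endothelial, 1 of 8 mural, 1 of 6 meningeal fibroblast, 2 of 5 monocyte and macrophage, 3 of 6 proliferation and 1 of 4 choroid plexus markers, and 1 of 5 neural progenitor markers fell. Among all genes 14.9% rose and 10.5% fell, so the mural, meningeal fibroblast and neural progenitor lists, with 1 gene called each, lie near those shares. The choroid plexus list had a median log2 fold change of 3.70, where the median of all genes was 0.0086. Its summed level was highest in SAH 1d-6, at 1037 CPM, with 711.7 CPM in SAH 1d-4. Over 24 alternatives the number that passed ran from 0 to 3 for choroid plexus, 0 to 4 for proliferation, 0 to 4 for mural, 0 to 4 for microglia, 1 to 4 for neutrophil, 1 to 3 for endothelial, 1 to 2 for monocyte and macrophage and for neural progenitor, and 0 to 1 for meningeal fibroblast markers. None of 6 oligodendrocyte and none of 3 red cell markers passed, also at an unadjusted p under 0.05 or by DESeq2. In SAH 7d against sham none of these markers passed by edgeR. An unadjusted p under 0.05, which 15.4% of all genes had, was found for 6 of 7 microglia, 6 of 6 meningeal fibroblast and 4 of 5 monocyte and macrophage markers. DESeq2 called 5, 0 and 0 of them, where it called 2.20% of all genes higher. The same unadjusted limit was passed by 2 of 3 neutrophil, 3 of 6 proliferation and 2 of 7 endothelial markers, and by none of the other lists. Of these DESeq2 called 1 neutrophil marker. In SAH 7d against SAH 1d, 1 microglia marker and the meningeal fibroblast marker Ogn rose by edgeR, where 1.37% of all genes differed. The call of Ogn was lost in 10 of the 12 fits that leave out 1 library. An unadjusted p under 0.05, which 14.7% of all genes had, was found for 7 of 7 microglia, 5 of 6 meningeal fibroblast, 5 of 8 mural and at most 2 markers of each other list. DESeq2 called 5 microglia markers higher. A marker to which DESeq2 gave no adjusted p would count as not called. The part of these cells in the levels of the listed genes was not tested.

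The genes most like each listed gene were found by Spearman's rho over the 18 libraries, which fall into groups and share depth, so the values are a description. For Gfap they were Pdlim4 (rho 0.955), Ampd3 (0.953) and Usp53 (0.942), and for Vim LOC100911545 (0.981), Lgals3 (0.971) and Rrbp1 (0.971). For Nes they were Wdr43 (0.957), Stbd1 (0.942) and Kpna2 (0.942), and for Lcn2 Oser1 (0.946), Gadd45b (0.934) and Itga5 (0.934). Steap4 had lower values, with Mysm1 (0.839), Serpinb6a (0.831) and Vps36 (0.761). With each group's mean removed, rho ranged from 0.721 to 0.841 for the 3 genes of Gfap and fell to 0.337 for Gadd45b with Lcn2.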

How the data were processed

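Cerebral cortex RNA of 18 rats was sequenced in 1 library per rat, and libraries were grouped by the labels. The authors deposited raw counts, which are whole numbers and were not normalized, and the deposited FPKM values were made by the authors per kilobase of transcript and scaled by mapped reads. Per the study's methods, reads were aligned to Rnor_6.0, whereas the submitters' processing notes list fastp, HISAT2, DESeq2 1.16.1 and mm9. The gene identifiers are rat identifiers. The counting program is not given in the sources used here. The labels speak of both sides of the cortex and the methods of the injured side. SAH libraries carry other codes as titles, so the library numbers are those of the count columns. Replicate rats are separate animals, and no batch is given in the labels.

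Genes were kept by filterByExpr on 18 libraries, scaled by TMM and tested with edgeR 4.0.16 in R 4.3.3 on the 12 libraries of each comparison, two-sided, at a Benjamini-Hochberg adjusted p under 0.05. The steps were tested on simulated data. Alternatives used DESeq2 1.42.0, limma 3.58.1, other scaling, filters and pseudocounts, a replicate block and libraries left out. Any gene to which DESeq2 gave no adjusted p was counted as not called. The genes, their lists and the tests were chosen with earlier results of these data known. Genes were named by the size of change among those that passed, up to 3 per list and comparison, plus Stat3, Socs3, Osmr, Slc22a17, Aqp4, Slc1a2 and Aldh1l1, and by rho, 3 per gene. Exceptions are LOC299282, the neutrophil markers, C3 and the ratio of Vim to Gfap, chosen after values were seen. Markers of the other cell types were given as counts and, apart from neutrophil markers and Ogn, were not named by this rule. Lists of the other cell types also covered endothelial, mural, oligodendrocyte, progenitor, proliferation, choroid plexus and red cell markers. Depth ranged from 27270026 to 38271014 counts, and errors are the spread among animals. Tables and figures were made with Python 3.11.15, pandas 2.3.3 and matplotlib 3.10.9.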

Additional observations from a re-analysis of the deposited data

Results flagged for a closer look

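In 2 of the 15 sets of 6 libraries examined, 1 library lay far from the others by Dixon's test on log2 CPM, where chance flags about 1 set in 20. Vim in SAH 7d-5 had a gap of 0.725 of the log2 range of the group, at 1651 CPM against at most 276 CPM in the other SAH 7d libraries. Steap4 in sham-2 had a gap of 0.645 of the log2 range, at 0.553 CPM as the lowest sham library. On the CPM scale these gaps were 0.910 and 0.465, so Steap4 in sham-2 lay apart on the log2 scale alone, and 6 of the 15 sets passed the same limit on the CPM scale.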

How the results depend on the processing

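The 4 genes that rose in SAH 1d against sham did so under all 24 alternatives, with log2 fold changes from 2.91 to 3.15 for Gfap, 1.77 to 2.03 for Vim, 1.16 to 2.35 for Nes, lowest with limma on FPKM at a pseudocount of 1, and 4.24 to 5.76 for Lcn2. Counts of the 5 genes that passed against sham on day 7 were 0 with edgeR, 2 with DESeq2, 1 with all 18 libraries in 1 fit and 3 with DESeq2 without SAH 7d-5, an alternative chosen after seeing the data, and 0 to 1 with each library left out in turn, where Gfap passed without SAH 7d-4 (edgeR adjusted p = 0.0492). For SAH 7d against SAH 1d the count was 0 with edgeR, 4 with limma voom, 3 with SAH 7d-5 and SAH 1d-3 left out, 4 with DESeq2 without SAH 7d-5, 1 each with DESeq2, all 18 libraries in 1 fit and limma on FPKM under each of 3 settings, and 0 to 3 with each library left out in turn. Over all settings 326 log2 fold changes kept their direction and side of the threshold, 26 newly passed and 18 changed sign, with 4 in both counts. Steap4 in SAH 7d against sham changed to -0.12 with limma voom, -0.033 without SAH 7d-5 and the same with SAH 1d-3 left out as well, and -0.042 with DESeq2 without SAH 7d-5. Vim in SAH 7d against SAH 1d changed to -0.84 with limma voom, -0.48 with limma on FPKM at a pseudocount of 1, with and without a filter, -0.48 at a pseudocount of 0.1, -0.97 without SAH 7d-5, -0.81 with SAH 1d-3 left out as well and -0.96 with DESeq2 without SAH 7d-5. Steap4 there changed to -0.56 with limma voom, -0.056 with limma on FPKM at a pseudocount of 0.1, -1.01 without SAH 7d-5, -0.53 with SAH 1d-3 left out as well and -1.0 with DESeq2 without SAH 7d-5. With each library left out in turn these 3 ran from -0.033 to 2.73, from -0.97 to 0.43 and from -1.01 to 2.02. The cause was not tested beyond the libraries left out. List counts moved by over 1.5 times in 231 of their values and did not in 1175. In SAH 1d against sham 5 A2-type genes passed with limma on FPKM against 8, 7 STAT3 pathway genes with at least 10 counts in every library, which tests fewer genes, against 12, 5 homeostatic genes with limma voom against 3, and 2 filament genes with all 18 libraries in 1 fit against 4. In SAH 7d against SAH 1d the count ran from 1 to 8 for pan-reactive, 0 to 8 for A2-type and 0 to 8 for STAT3 pathway genes. Of the 3 genes nearest to Gfap, to Nes and to Lcn2 by rho, 0 stayed among the nearest by Pearson's r.

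The group labels share replicate numbers, but correlations of same-numbered libraries ranged from -0.252 to 0.197, so the numbers were not taken as pairs. With the replicate block the count of genes that passed was 4, 0 and 0 in the comparisons of SAH 1d with sham, SAH 7d with sham and SAH 7d with SAH 1d. In the last, Vim changed to -0.54 and Steap4 to -0.13 with the block. With 6 libraries a group, the SAH 7d comparisons have wide errors. SAH 7d-5 was not the only source of spread. Without it Gfap still had a mean of 1379 CPM with an SD of 860 CPM in SAH 7d. None of the 5 genes then passed against sham by edgeR.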
